A study of Xenopus laevis with 24 samples.

Results

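The response of whole *Xenopus laevis* gastrulae to a retinoic acid receptor (RAR) agonist was compared between 2 clutches, E and D, as the difference between TTNPB and vehicle in clutch E minus that difference in clutch D. It used 16 of the series' 24 libraries, chosen by exposure and clutch. These were 4 libraries each of clutch E with 1 µM TTNPB, clutch D with 1 µM TTNPB, clutch E with the 0.1% ethanol vehicle and clutch D with that vehicle. Embryos were exposed from early cleavage, stage 6 to 7, and collected at gastrula stage 10.5, and each library was made from 5 pooled embryos. TTNPB is a synthetic agonist selective for the RARs, and the remaining 8 libraries had the RAR inverse agonist AGN193109. A clutch is one set of sibling eggs, so the comparison sets 1 sibship against 1 other. Nothing in the labels ties a library to a dish, and the p-values therefore reflect differences among aliquots of 1 clutch, which may be technical.

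Retinoic acid is a diffusible signal made from vitamin A that binds RARs, which sit on DNA with retinoid X receptors and turn on their targets when the ligand is present. In the frog gastrula the signal is known for setting posterior identity in the hindbrain and trunk, through anterior hox genes among others, and for turning on the genes of its own degradation and reception. Excess ligand is known to reduce head structures.

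Values were FPKM (fragments scaled to transcript length and to the library's total) of GenBank transcript records. All differences below are on the log2(FPKM + 1) scale, which understates changes of low records, and errors of differences are the moderated SE of 1 limma fit over the 16 libraries and the 19567 records that averaged 1 FPKM or more. A record passed the threshold at a Benjamini-Hochberg adjusted p under 0.05. Read counts were not used here, so depth is unknown. The embryos held transcripts of the labelled stage, with *chrd* between 42.5 and 80.6 FPKM, *sox17b* between 49.3 and 75.8 FPKM and *vegt* between 78.2 and 154 FPKM over the 16 libraries. Of markers of other material, the muscle gene *actc1* was at most 0.348 FPKM and both records of the blood gene *gata1* at most 0.385 FPKM. Others were present, with the egg and oocyte genes *zp3* at 6.85 to 23.7 FPKM, *velo1* at 7.13 to 15.5 FPKM and *zar1* at 1.33 to 5.85 FPKM. The neural gene *neurog2* reached 2.65 and 4.96 FPKM in its records. The source of these transcripts was not tested. The 10 most abundant records took 47.3% to 51.3% of all FPKM in the 8 clutch E libraries, and in clutch D 60.3% to 62.8% in 6 libraries, 47.9% in TTNPB replicate 4D and 46.9% in vehicle replicate 3D. This share therefore moved with the clutch in 14 of 16 libraries, and its part in the clutch differences was not tested. The median FPKM was 4.69 to 4.99 in TTNPB libraries of clutch E and 5.15 to 5.69 in those of clutch D, and 4.25 to 4.95 in vehicle libraries of clutch E and 5.32 to 5.79 in those of clutch D.

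Both clutches responded to TTNPB, with 184 records past the threshold in clutch E (0.940% of those tested) and 91 in clutch D (0.465%). In clutch E 171 records rose (0.874%) and 13 fell (0.0664%), and in clutch D 80 rose (0.409%) and 11 fell (0.0562%). At an unadjusted p under 0.05 the order was the other way, with 1507 records in clutch E (7.70%) and 1784 in clutch D (9.12%). Of the rises, 71 were past the threshold in both clutches, which is 41.5% of those in clutch E and 88.8% of those in clutch D. Of the falls, 2 were, which is 15.4% of those in clutch E and 18.2% of those in clutch D. Of the 100 rises past the threshold in clutch E and not in clutch D, 91 also had a positive difference in clutch D. Their median there was 0.42, beside -0.01 over all records, against 0.94 in clutch E, the clutch that chose them. Of the 9 rises past it in clutch D alone, 8 were also positive in clutch E. Of the falls past it in 1 clutch alone, 11 of 11 from clutch E and 4 of 9 from clutch D had the same sign in the other. In clutch E 117 records passed without TTNPB replicate 2E and 122 without vehicle replicate 4E.

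No record passed the threshold for a different response in the 2 clutches (0 of 19567, limma), and 1036 had an unadjusted p under 0.05 (5.29%). Of these 750 had a more positive response in clutch E (3.83%) and 286 a more negative one (1.46%), a split that became 539 and 473 after quantile normalization and 528 and 471 after upper-quartile scaling. On simulated data of the same design and number of records the fit recovered 44 of 100 records whose responses differed by log2 1 and 88 of 100 that differed by log2 2. Both sets were changed together, in records above the lowest levels and with independent normal noise. The adjusted threshold is stricter with fewer true differences, so these shares do not give the power for a few differing records.

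The genes that TTNPB raised on average over both clutches nevertheless had a larger median response in clutch E. The mean of the 2 responses passed the threshold for 294 records, called responders (1.50% of records tested), of which 262 rose (1.34%) and 32 fell (0.164%). They were chosen on the mean of the 2 responses, which in this balanced design leaves their difference free if both clutches have the same spread. That equality was not tested. The median correlation of a library with its own group was 0.944 to 0.953 in clutch E and 0.920 to 0.935 in clutch D. The median response of the 262 risers was 0.88 in clutch E and 0.66 in clutch D. The median difference between the clutches was 0.17, with quartiles of -0.02 and 0.39, beside 0.06 over all 19567 records. The response was more positive in clutch E for 189 of the 262 risers (72.1%), beside 58.9% of all records. At an unadjusted p under 0.05 the responses of 41 risers were larger in clutch E (15.6%, beside 3.83% of all records) and those of 3 larger in clutch D (1.15%, beside 1.46%). Of the 41, 24 were among the 42 risers lower with vehicle in clutch E, where the shared vehicle libraries favour that sign. Of all 3558 records in that class, 371 were more positive in clutch E and 5 more negative. Among the 200 risers whose vehicle levels did not pass, 17 were larger in clutch E and 2 in clutch D. Over all 15264 records of that class the counts were 369 and 205. Among the 20 higher with vehicle in clutch E the counts were 0 and 1, beside 10 and 76 of all 745 such records. Measured in FPKM instead of log2 values, the difference between TTNPB and vehicle was also larger in clutch E for 189 risers (72.1%), beside 59.2% of all records. After quantile normalization, which brought the median difference of all records to 0.00, the risers' median difference was 0.11 and 67.2% of 250 risers were more positive in clutch E, beside 49.3% of all records. At an unadjusted p under 0.05 the responses of 32 risers were then larger in clutch E and those of 4 larger in clutch D. Over all 19567 records 539 were then more positive in clutch E and 473 more negative.

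The median response of the risers was larger in clutch E in each class of size. The 15 risers with an average response of 2 or more had medians of 2.50 in clutch E and 2.21 in clutch D, the 67 with an average of 1 to 2 had 1.42 and 1.27 in clutch E and clutch D, the 128 with 0.5 to 1 had 0.83 and 0.63, and the 52 below 0.5 had 0.45 and 0.32. The median difference per record was 0.33, 0.18, 0.19 and 0.10 in these classes, beside 0.06 over all records, so the smallest class was near that shift. In single libraries, the median over the risers relative to the mean of the clutch's vehicle libraries was 0.83, 0.99, 0.84 and 0.86 in the TTNPB libraries of clutch E, and 0.74, 0.53, 0.72 and 0.73 in those of clutch D. The lowest clutch E library was thus above the highest clutch D library by this measure. The 4 TTNPB libraries of a clutch were set against the same vehicle mean, so these values are not independent. Over all records the medians were 0.03, 0.06, 0.02 and 0.08 in clutch E, and 0.04, -0.08, 0.02 and -0.02 in clutch D. This shift of all records was not subtracted from the values of the risers. Without TTNPB replicate 2D, the lowest, 305 records rose, their median difference between the clutches was 0.07, and 61.0% of them were more positive in clutch E, beside 55.4% of all records.

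**Figure D1:**
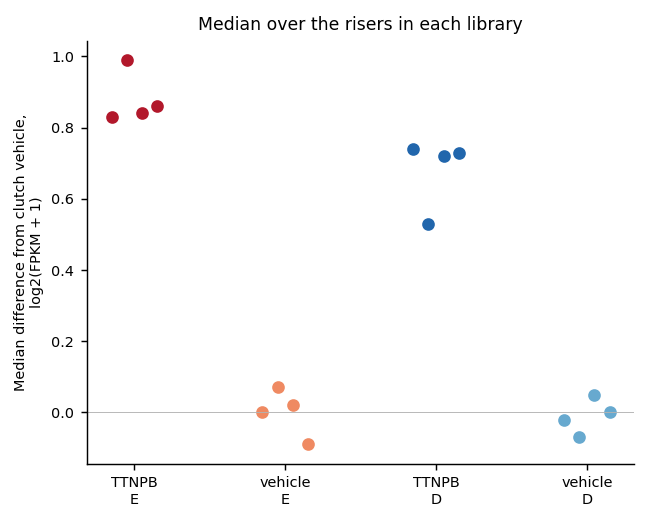
Median over the 262 risers of each library's log2(FPKM + 1) minus the mean of its clutch's vehicle libraries (a vehicle library is set against the other 3). The TTNPB libraries of clutch E lie between 0.83 and 0.99 and those of clutch D between 0.53 and 0.74, and the vehicle libraries lie between -0.09 and 0.07.

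Among the 32 records that fell, the median response was -0.44 in clutch E and -0.57 in clutch D. The response was larger in size in clutch E for 15 of them, beside 9360 of all 19567 records. At an unadjusted p under 0.05, 4 were more positive in clutch E (12.5%, beside 3.83% of all records). Another 4 were more negative there (12.5%, beside 1.46%).

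**Figure D2:**
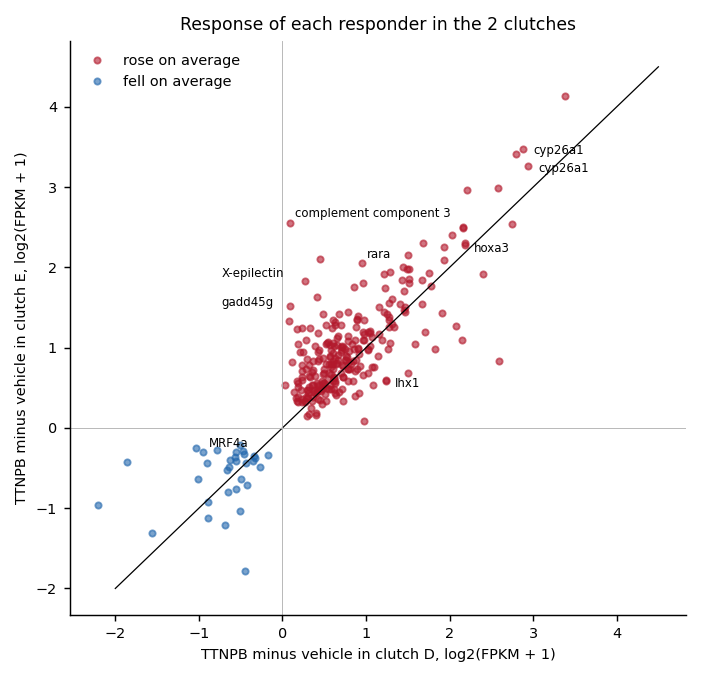
Response to TTNPB of each of the 294 responders in clutch E (vertical axis) and in clutch D (horizontal axis), in log2(FPKM + 1), with the line of equal responses. Most risers (red, 189 of 262) lie above the line, with complement component 3 farthest above it and *lhx1* below it.

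Genes of the retinoid pathway itself were the clearest responders in both clutches. Of the 7 tested records of retinoid metabolism and receptors (of 10 in the table), 3 rose in each clutch, a pair of *cyp26a1* records and *rara*. Of all records 0.874% rose in clutch E and 0.409% in clutch D. The median response of the list was 0.34 in clutch E and 0.14 in clutch D. None passed the threshold for a difference in response, and at an unadjusted p under 0.05 there were 2 larger in clutch E, beside 3.83% of all records. With vehicle 2 of the 7 were lower in clutch E, beside 18.2% of all records, and 0 higher, which favours that sign.

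*rara*, which encodes RAR alpha, had the smallest p of all records for a difference in response. It was at 11.5, 15, 12.4 and 13.8 FPKM with TTNPB in clutch E, against 2.58, 2.04, 2.71 and 2.37 FPKM with vehicle. In clutch D it was at 11.9, 10.7, 10.5 and 12.5 FPKM with TTNPB, against 6.19, 4.67, 6.02 and 4.90 FPKM with vehicle. The TTNPB libraries of both clutches shared a range, while every vehicle library of clutch E was below every one of clutch D. The response was 2.05 ± 0.12 in clutch E (limma, adjusted p = 1.03e-07) and 0.95 ± 0.12 in clutch D (adjusted p = 0.000952). Their difference of 1.09 ± 0.18 had an unadjusted p of 1.35e-05 and an adjusted p of 0.195, with a 95% interval of 0.72 to 1.47 not adjusted for the number of records. With vehicle alone *rara* was lower in clutch E by -0.91 ± 0.12 (adjusted p = 0.000184).

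*cyp26a1*, whose enzyme oxidises retinoic acid and is induced by it, reached a similar level with TTNPB in both clutches. Its more abundant record was at 237, 261, 233 and 239 FPKM with TTNPB in clutch E, against 20.9, 23.3, 18.3 and 21.1 FPKM with vehicle. The clutch D values were 252, 205, 209 and 278 FPKM with TTNPB, against 33.0, 27.6, 29.2 and 34.7 FPKM with vehicle. As with *rara*, the ranges with TTNPB overlapped and those with vehicle did not. The responses were 3.48 ± 0.11 and 2.88 ± 0.11 in clutch E and clutch D, a difference of 0.60 ± 0.15 (unadjusted p = 0.00116, limma adjusted p = 0.573). The second *cyp26a1* record had responses of 3.26 and 2.94 and a difference of 0.32 ± 0.22 with a 95% interval of -0.14 to 0.78. Of the other retinoid genes, *rdh10*, whose enzyme makes retinal from retinol, had responses of -0.20 in clutch E and 0.06 in clutch D, and neither passed the threshold. *rarb* averaged 0.747 FPKM and was not tested.

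The anterior hox genes, which give hindbrain segments their identity, rose in both clutches by amounts whose differences were mostly within error. All 7 tested records of hox paralogs 1 to 5, of 9 matched, rose in each clutch, beside 0.874% of all records in clutch E and 0.409% in clutch D. Both *hoxa2* records, *hoxa3* and *hoxb1* averaged under 1 FPKM with vehicle in both clutches. They passed the 1 FPKM filter only through the TTNPB libraries, so the count of rises was partly set by the filter and is not read as support. The median of the 7 was 2.41 in clutch E and 2.18 in clutch D. The response was larger in clutch E for 6 of 7, beside 58.9% of all records that were more positive there. With vehicle 2 of the 7 were lower in clutch E and 0 higher, which favours that sign.

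*hoxd1* was at 30.7, 39.4, 28.1 and 32.9 FPKM with TTNPB in clutch E, against 6.87, 8.41, 8.97 and 6.13 FPKM with vehicle. Clutch D libraries had 41.7, 35.9, 40.1 and 30.4 FPKM with TTNPB, against 12, 13.6, 10.5 and 12.8 FPKM with vehicle. The TTNPB ranges overlapped between the clutches, and every vehicle library of clutch E was below every one of clutch D. The responses of 1.98 ± 0.14 in clutch E and 1.52 ± 0.14 in clutch D differed by 0.46 ± 0.19 (unadjusted p = 0.033, limma adjusted p = 0.900). *hoxa3* responded by 2.30 in clutch E and 2.18 in clutch D, with a 95% interval of the difference of -0.41 to 0.64, and *hoxb1* by 2.41 and 2.03, with an interval of -0.54 to 1.29. Both intervals hold differences in either direction. The *hoxa2* records had differences of -0.21 ± 0.27 and 0.29 ± 0.38. Where 1 gene has several records, reads shared between them or between the L and S subgenome copies make the split uncertain.

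Of the 3 tested records of later hox paralogs and cdx genes (of 10 matched), which act in the trunk and tail, *hoxb6* and *cdx4* rose in both clutches. *hoxb6* also averaged under 1 FPKM with vehicle in both clutches and passed the filter only through the TTNPB libraries. *cdx4* responded by 1.34 ± 0.18 in clutch E and 0.89 ± 0.18 in clutch D, a difference of 0.45 ± 0.25 (unadjusted p = 0.0882, limma adjusted p = 0.982). The third, *cdx1*, had responses of 0.54 and 0.13, which did not pass. It was lower in clutch E both with TTNPB, at 10.8 ± 1.99 against 16 ± 1.93 FPKM in clutch D, and with vehicle, at 7.07 ± 0.97 against 14.5 ± 1.76 FPKM (SD, n = 4 each).

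No difference in response was detected for genes of the hindbrain and posterior neural plate. Of 12 tested records 6 rose in each clutch, beside 0.874% of all records in clutch E and 0.409% in clutch D. The medians were 0.66 in clutch E and 0.72 in clutch D, and none had an unadjusted p under 0.05 for the difference. The median difference per record was 0.10, beside 0.06 over all records, and 9 of the 12 were more positive in clutch E, beside 58.9% of all records. After quantile normalization or upper-quartile scaling 1 had an unadjusted p under 0.05 for a more negative response there, beside 473 and 471 of all 19567 records. *gbx2*, expressed behind the midbrain, had responses of 2.09 and 1.93 in clutch E and clutch D in 1 record, with an interval of the difference of -0.44 to 0.77, and of 2.28 and 2.19 in the other. In the FGF feedback list *dusp6*, a phosphatase induced by FGF signalling, rose in both clutches in both its records, with differences of 0.47 ± 0.20 and 0.17 ± 0.37.

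Ventral and BMP genes and non-neural ectoderm genes had more positive median responses in clutch E than in clutch D, and no record of either list passed the threshold for the difference. Of 22 tested ventral and BMP records 2 rose in clutch E, beside 0.874% of all records, and 0 in clutch D, beside 0.409%. Their median response was 0.28 in clutch E and -0.04 in clutch D, and 7 had an unadjusted p under 0.05 for a more positive response in clutch E, beside 3.83% of all records, and 0 for the opposite, beside 1.46%. With vehicle 11 were lower in clutch E, beside 18.2% of all records, and 0 higher, beside 3.81%. After quantile normalization these vehicle counts were 10 and 1, after upper-quartile scaling 9 and 1, and the 7 and 0 did not move in number. Of 15 tested non-neural ectoderm records 5 rose in clutch E and 0 in clutch D, beside the same shares, with medians of 0.50 in clutch E and 0.24 in clutch D. In this list 6 had an unadjusted p under 0.05 for a more positive response in clutch E and 0 for the opposite, and the 6 became 2 after quantile normalization and 3 after upper-quartile scaling. With vehicle 9 of the 15 were lower in clutch E and 0 higher, and the 9 became 3 under either scaling. The same vehicle libraries enter the response, so a lower vehicle level in clutch E favours a more positive response there. Of all 3558 records lower with vehicle in clutch E, 371 had an unadjusted p under 0.05 for a more positive response there. For the opposite, 5 did. The counts of both lists are therefore not read as a result apart from their vehicle levels. *gata2* is in both lists.

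*gata2*, a transcription factor gene of ventral mesoderm and surface ectoderm, was at 25.9, 37.3, 31.9 and 29.2 FPKM with TTNPB in clutch E, against 13.4, 13.4, 14 and 14.5 FPKM with vehicle. Clutch D libraries had 36.4, 24.9, 40.7 and 42.2 FPKM with TTNPB, against 24.4, 27.5, 34.2 and 30.9 FPKM with vehicle. The groups did not overlap in clutch E and overlapped in clutch D. It rose by 1.10 ± 0.15 in clutch E (adjusted p = 0.00082) and differed by 0.28 ± 0.15 in clutch D (adjusted p = 0.652), and the difference was 0.83 ± 0.22 (unadjusted p = 0.00158, limma adjusted p = 0.608).

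*msx1*, a BMP-induced homeobox gene, was at 57.0, 78.8, 59.0 and 73.5 FPKM with TTNPB in clutch E, against 27.3, 24.4, 32.2 and 27.2 FPKM with vehicle. In clutch D it was at 47.6, 42.6, 65.9 and 62.4 FPKM with TTNPB, against 41.9, 38.1, 67.3 and 40.4 FPKM with vehicle. Again the groups were apart in clutch E and overlapped in clutch D, and the responses differed by 1.01 ± 0.25 (unadjusted p = 0.00117, limma adjusted p = 0.573). With vehicle *msx1* was lower in clutch E by -0.70 ± 0.18 (limma adjusted p = 0.0112), which favours that sign. Its second record, along with *bambi*, 1 *bmp4* record, 1 *ventx1* record and 1 *ventx2* record, made up the rest of the 7, with differences of 0.96, 0.58, 0.71, 0.80 and 0.47. *bambi*, which encodes a BMP decoy receptor, did not rise in either clutch and was at 28.9 ± 6.01 FPKM with TTNPB in clutch E and 48.0 ± 3.32 FPKM in clutch D, and at 21.9 ± 1.74 and 55.9 ± 4.90 FPKM with vehicle in clutch E and clutch D (SD, n = 4 each).

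In the ectoderm list the smallest p for the difference was that of *grhl3*, an epidermal transcription factor gene, at 0.57 ± 0.15 (unadjusted p = 0.0014, limma adjusted p = 0.608). Its responses were 0.23 in clutch E and -0.34 in clutch D, neither past the threshold. *dlx3*, a homeobox gene of the non-neural ectoderm, rose in clutch E by 1.32 (adjusted p = 0.0157), with 0.63 in clutch D (adjusted p = 0.444) and a difference of 0.69 ± 0.36. *foxi1*, an ectodermal forkhead gene, rose in clutch E by 1.04 (adjusted p = 0.00854) with 0.83 in clutch D (adjusted p = 0.0713), and its difference of 0.21 ± 0.26 was within error. *gata3* rose in clutch E by 1.05, with 0.52 in clutch D, and *grhl1* rose by 0.63, with 0.24 in clutch D. Libraries of whole embryos cannot tell fewer cells of a type from less RNA per cell.

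Within the 22 pan-mesodermal and ventrolateral records, 9 of which are also in the ventral list, 4 had an unadjusted p under 0.05 for a more positive response in clutch E, beside 3.83% of all records, and 1 for the opposite, beside 1.46%. With vehicle 9 of the 22 were lower in clutch E and 0 higher, so these counts too are tied to the vehicle libraries. *evx1*, a homeobox gene of the ventrolateral marginal zone, rose in clutch E by 1.01 ± 0.20 (adjusted p = 0.022), with 0.19 ± 0.20 in clutch D. It was at 5.01 ± 1.45 FPKM with TTNPB in clutch E and 6.26 ± 1.32 FPKM in clutch D, and at 1.94 ± 0.452 and 5.38 ± 1.07 FPKM with vehicle in clutch E and clutch D (SD, n = 4 each). The pan-mesodermal gene *tbxt* had no call in either clutch, with differences in response of 0.03 ± 0.11 and 0.11 ± 0.15 in its records.

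**Figure D3:**
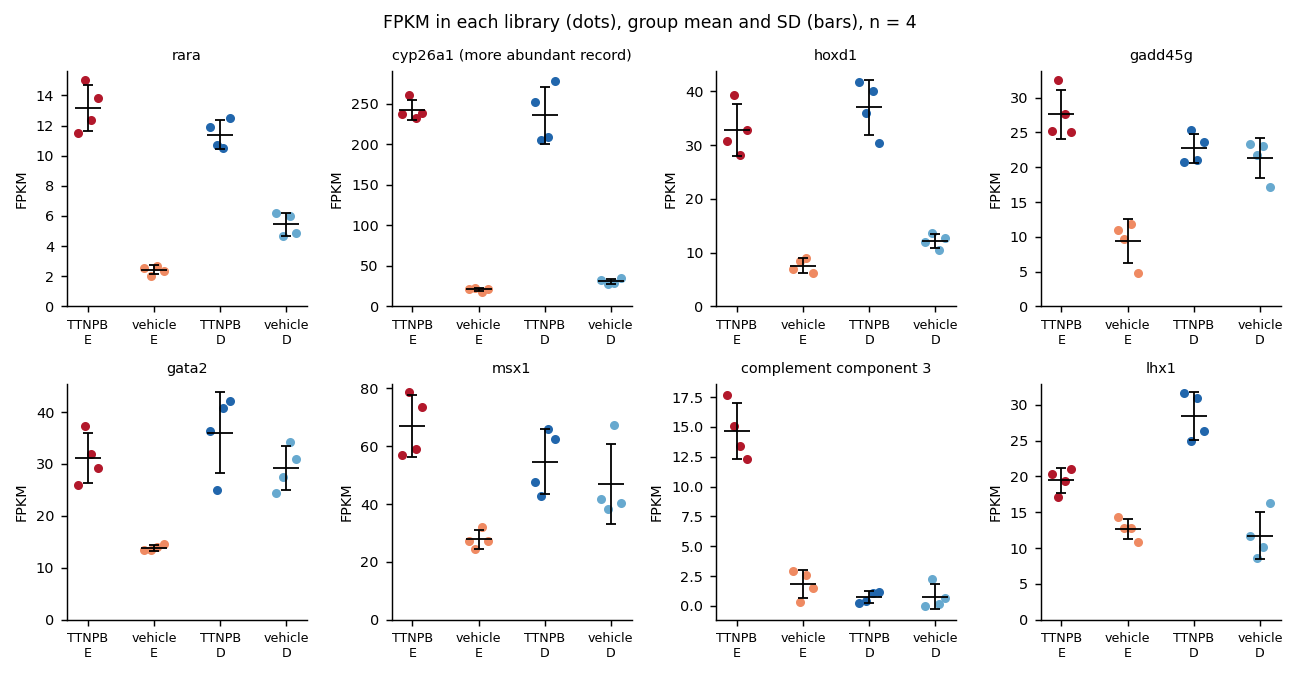
FPKM of 8 records in each library (dots) with the group mean and SD (n = 4), TTNPB and vehicle of clutch E, then of clutch D. The vehicle libraries of clutch E lie below those of clutch D for *rara*, *cyp26a1*, *hoxd1*, *gadd45g*, *gata2* and *msx1*. Complement component 3 is at 12.3 FPKM or more with TTNPB in clutch E and at most 2.92 FPKM elsewhere, and *lhx1* is highest with TTNPB in clutch D.

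The named risers with the largest excess in clutch E differed in their vehicle levels. *gadd45g*, a growth arrest and DNA damage response gene, was lower with vehicle in clutch E. It was at 25.2, 32.5, 27.7 and 25.0 FPKM with TTNPB in clutch E, against 11, 9.74, 11.9 and 4.81 FPKM with vehicle. The clutch D values were 20.8, 25.3, 21.1 and 23.6 FPKM with TTNPB, against 23.4, 21.8, 23 and 17.1 FPKM with vehicle. The clutch E vehicle libraries stood below the other 12, and the responses of 1.52 ± 0.20 in clutch E and 0.09 ± 0.20 in clutch D differed by 1.43 ± 0.28 (unadjusted p = 0.000109, limma adjusted p = 0.218). Ornithine decarboxylase-2, an enzyme of polyamine synthesis, averaged 171 ± 16.6 FPKM with TTNPB and 73.3 ± 17.4 FPKM with vehicle in clutch E, and 229 ± 34.0 and 203 ± 41.3 FPKM with TTNPB and vehicle in clutch D (SD, n = 4 each). Its responses of 1.23 and 0.18 differed by 1.06 ± 0.24 (unadjusted p = 0.000424, limma adjusted p = 0.421).

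Complement component 3, the central protein of the complement cascade, was low with vehicle in both clutches. It was at 17.7, 15.1, 13.4 and 12.3 FPKM with TTNPB in clutch E, against 2.92, 0.363, 2.58 and 1.49 FPKM with vehicle. In clutch D it was at 0.233, 0.448, 1.11 and 1.19 FPKM with TTNPB, against 0, 2.27, 0.18 and 0.685 FPKM with vehicle. The 4 TTNPB libraries of clutch E stood apart from the other 12, and it was named a responder through clutch E. The difference in response was 2.48 ± 0.52 (unadjusted p = 0.000212, limma adjusted p = 0.346), and on untransformed FPKM it passed the threshold (adjusted p = 0.0045, over a range of 0.0045 to 0.937 among the alternatives). X-epilectin, a lectin gene, averaged 4.34 ± 1.33 FPKM with TTNPB in clutch E and 0.577 ± 0.23 FPKM in clutch D, and 0.484 ± 0.234 and 0.341 ± 0.419 FPKM with vehicle in clutch E and clutch D (SD, n = 4 each), a difference of 1.56 ± 0.33 (unadjusted p = 0.000263, limma adjusted p = 0.390). X-epilectin passed the 1 FPKM filter only through the TTNPB libraries of clutch E, so its p-values are not read as support.

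*fzd10*, which encodes a Wnt receptor, had vehicle levels that overlapped between the clutches, and it averaged 29.3 ± 4.67 FPKM with TTNPB in clutch E and 17 ± 1.58 FPKM in clutch D (SD, n = 4 each). Its responses of 1.42 and 0.49 differed by 0.93 ± 0.22 (unadjusted p = 0.000826, limma adjusted p = 0.527). Guanidinoacetate methyltransferase, which completes creatine synthesis, had responses of 1.76 in clutch E and 0.86 in clutch D, a difference of 0.90 ± 0.33 (unadjusted p = 0.0159, limma adjusted p = 0.878).

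Among the 10 named responders with the most negative difference in response, 6 had risen, and *lhx1* led them. *lhx1*, which encodes a LIM homeodomain factor of the organizer, was at 20.4, 17.1, 19.3 and 21.0 FPKM with TTNPB in clutch E, against 14.3, 12.8, 12.8 and 10.9 FPKM with vehicle. Clutch D libraries had 31.6, 24.9, 30.9 and 26.3 FPKM with TTNPB, against 11.7, 8.65, 10.2 and 16.3 FPKM with vehicle. The vehicle ranges overlapped, and every TTNPB library of clutch D was above every one of clutch E. The responses of 0.58 ± 0.15 in clutch E (adjusted p = 0.122) and 1.24 ± 0.15 in clutch D (adjusted p = 0.000537) differed by -0.66 ± 0.22 (unadjusted p = 0.00789, limma adjusted p = 0.829).

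The next of these were a Sox9b record (-0.55 ± 0.33), the hedgehog gene *hh4* (-0.24 ± 0.22), *rybp*, of a Polycomb complex (-0.23 ± 0.21), the ETS factor gene *etv1* (-0.21 ± 0.14) and 1 *hoxa2* record (-0.21 ± 0.27). Their unadjusted p for the difference lay between 0.121 and 0.448.

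Genes of the head and the organizer had negative medians in both clutches. Of 8 tested anterior neural and head records 3 fell in clutch E, beside 0.0664% of all records, and 1 in clutch D, beside 0.0562%. The medians were -0.54 in clutch E and -0.45 in clutch D. The median difference per record was -0.22, beside 0.06 over all records, and 2 of the 8 were more positive in clutch E, beside 58.9%. The *otx5* record past the threshold in clutch E alone, from a family of head homeobox genes, was at 16.5, 17.7, 16.7 and 20.2 FPKM with TTNPB in clutch E, against 36.9, 34.7, 33.8 and 45.7 FPKM with vehicle. In clutch D it was at 17.2, 19.1, 20.6 and 20.6 FPKM with TTNPB, against 23.7, 26.3, 34.1 and 28.9 FPKM with vehicle. All TTNPB libraries were below all vehicle libraries in each clutch. Its responses of -1.04 ± 0.12 and -0.51 ± 0.12 differed by -0.53 ± 0.17 (unadjusted p = 0.00771, limma adjusted p = 0.829), and with vehicle it was higher in clutch E by 0.41 ± 0.12 (adjusted p = 0.0257). The other *otx5* record fell in both clutches, by -0.76 and -0.56. *hesx1*, a repressor needed for the forebrain, fell in clutch E by -1.12 (adjusted p = 0.0321), with -0.89 in clutch D (adjusted p = 0.163). A record of an ADAM metallopeptidase with a thrombospondin motif, outside these lists, fell in clutch E by -0.71 ± 0.09 (adjusted p = 0.00046), with -0.42 ± 0.09 in clutch D (adjusted p = 0.0713) and a difference of -0.29 ± 0.13 (unadjusted p = 0.0434, limma adjusted p = 0.929).

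In the organizer and axial mesoderm list of 14 tested records, 1 fell in clutch E (*hesx1*), beside 0.0664% of all records, and 1 rose in clutch D (*lhx1*), beside 0.409%. The medians were -0.28 in clutch E and -0.12 in clutch D. The median difference per record was -0.21, beside 0.06 over all records, and 5 of the 14 were more positive in clutch E, beside 58.9%. At an unadjusted p under 0.05, 2 were more negative there, beside 1.46% of all records, and 0 more positive, beside 3.83%. The organizer homeobox gene *gsc* was at 4.96 ± 2.80 FPKM with TTNPB and 10.9 ± 1.36 FPKM with vehicle in clutch E, and at 6.67 ± 2.51 and 7.32 ± 1.93 FPKM with TTNPB and vehicle in clutch D (SD, n = 4 each). Its responses of -1.13 and -0.15 did not pass in either clutch, and their difference was -0.98 ± 0.44 (unadjusted p = 0.0401, limma adjusted p = 0.928). *chrd*, which encodes a secreted BMP antagonist, had responses of -0.25 and -0.08.

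In the remaining lists the median difference in response lay between -0.14 and 0.28, beside 0.06 over all records. These held endoderm, neural plate, presomitic and myogenic, ribosomal protein, cell stress, maternal and early zygotic genes, and those of WNT and FGF feedback. Of their 90 places on the lists, 6 had an unadjusted p under 0.05 for a more positive response in clutch E, beside 3.83% of all records, and 2 for the opposite, beside 1.46%, counts that are not read as a result about these lists. Both of the opposite were among the 12 neural plate records. Those 2 became 4 after quantile normalization and 3 after upper-quartile scaling, where 473 and 471 of all 19567 records did so. With vehicle 4 of the 12 were higher in clutch E and 1 lower, which favours that sign.

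**Figure D4:**
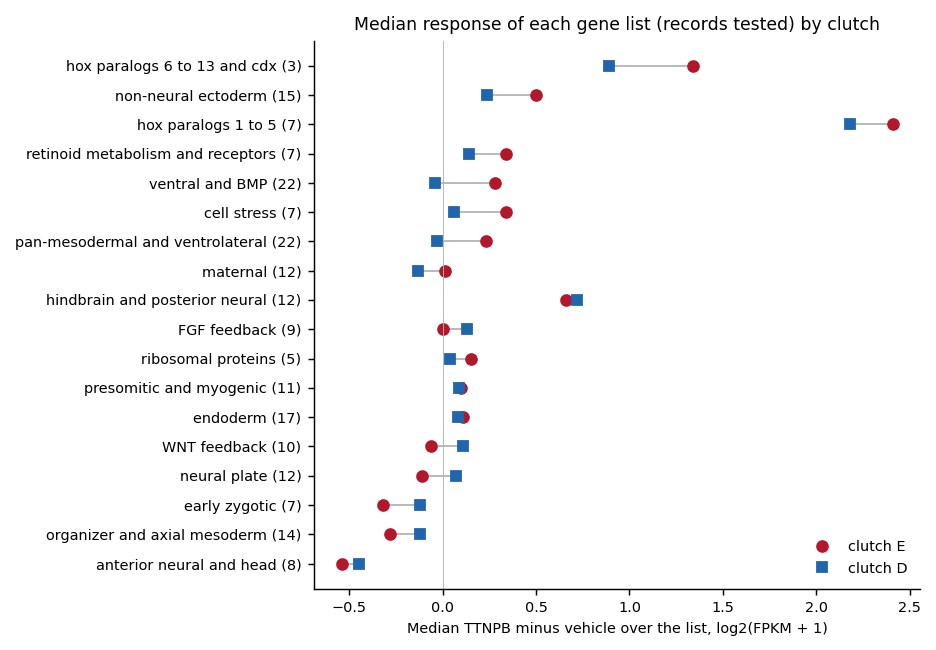
Median response to TTNPB of each gene list in clutch E (red circles) and clutch D (blue squares), in log2(FPKM + 1), with the number of records tested in brackets and lists ordered by their median difference. The medians of ventral and BMP genes are 0.28 in clutch E and -0.04 in clutch D, and those of hox paralogs 1 to 5 are 2.41 and 2.18.

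Whether the difference in response follows the level that a clutch starts from was examined first with the clutch differences under each exposure, which share no library. Between the clutches 2857 records differed with TTNPB (14.6%) and 4303 with vehicle (22.0%). With TTNPB 685 records were higher in clutch E than in clutch D (3.50%) and 2172 lower (11.1%), and with vehicle 745 were higher (3.81%) and 3558 lower (18.2%). The median of all records was -0.12 with TTNPB and -0.17 with vehicle. Both splits depended on scaling. After quantile normalization 1204 were higher and 1400 lower in clutch E with TTNPB, and 1643 higher and 1784 lower with vehicle, and after upper-quartile scaling 1194 and 1422 with TTNPB and 1624 and 1840 with vehicle. These scalings moved the vehicle median to 0.00 and -0.01. Over the 262 risers the clutch difference with TTNPB had a slope of 0.58 on that with vehicle (Pearson's r = 0.57, across records, which are not independent replicates). The line was fitted with an intercept, so the slope does not give the average difference in response. A slope of 1 would mean a difference in response that does not vary with the vehicle difference. One of 0 would mean a clutch difference with TTNPB that is unrelated to that with vehicle. Error in the vehicle difference also pulls such a slope below 1, so a value under 1 does not by itself show converging levels. Over all 19567 records, most of which did not respond, the slope was 0.63 (r = 0.66), so the slope of the risers was close to that of all records and is not read as a result about the risers.

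**Figure D5:**
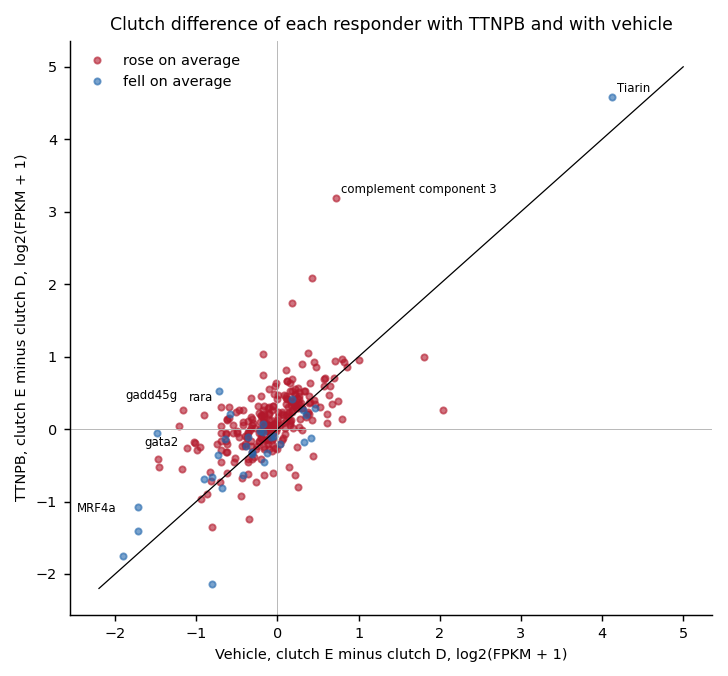
Clutch E minus clutch D difference of each of the 294 responders with TTNPB (vertical axis) and with vehicle (horizontal axis), in log2(FPKM + 1), with the line of equal differences. Tiarin, at 4.58 with TTNPB and 4.12 with vehicle, lies near the line, *gadd45g*, *rara* and *gata2* lie left of zero near the horizontal axis, and complement component 3 lies far above the line.

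Divided by the vehicle comparison, the 42 risers that were lower with vehicle in clutch E (16% of risers, beside 18.2% of all records) had medians of 1.03 in clutch E and 0.42 in clutch D, and 39 of them (92.9%) had the larger response in clutch E. Of all 3558 records lower with vehicle in clutch E, 82.8% had the more positive response there, with medians of 0.10 and -0.09. The 200 risers whose vehicle levels did not pass had medians of 0.88 in clutch E and 0.71 in clutch D, and 71.5% had the more positive response in clutch E, beside 54.9% of all records in that class. The 20 that were higher with vehicle in clutch E (7.63% of risers, beside 3.81% of all records) had medians of 0.71 in clutch E and 0.81 in clutch D, and 35% had the more positive response in clutch E, beside 26.7%. The same vehicle libraries enter both the division and the response here, so these counts are read only against those of all records.

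The AGN193109 libraries gave a division that shares no library with the responses. Replicate 4E was left out, since its median correlation with its own group over records was 0.785, against 0.920 to 0.953 in the other 23 libraries. By this division 38 risers were lower with AGN193109 in clutch E by more than 0.5, and their median responses were 1.20 in clutch E and 0.61 in clutch D, with 34 of 38 (89.5%) larger in clutch E. The 211 risers within 0.5 had medians of 0.82 and 0.65, with 150 (71.1%) larger in clutch E. The 13 risers higher with AGN193109 in clutch E by more than 0.5 had medians of 0.98 and 1.03, with 5 of 13 (38.5%) larger in clutch E. Over all records the 3 shares were 64.3%, 58.2% and 51.8%, in the same order but closer together. The slope of the difference in response on the AGN193109 clutch difference was -0.29 over the risers (r = -0.29, n = 262) and -0.05 over all records (r = -0.06, n = 19567). AGN193109 acts on the same receptors, so this level is not an untreated one.

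The named responders with the largest clutch differences under vehicle did not all follow one pattern. Ornithine decarboxylase-2, *gadd45g* and *gata2* were lower with vehicle in clutch E by -1.47 ± 0.17, -1.16 ± 0.20 and -1.02 ± 0.15. Their differences in response, given above, were positive and did not pass (limma adjusted p = 0.421, 0.218 and 0.608), and a choice by the vehicle difference favours that sign, since the same vehicle libraries enter the response. *tmem60*, of a transmembrane protein, was lower by -1.90 ± 0.17 with vehicle and by -1.75 ± 0.17 with TTNPB, and its responses of -0.49 and -0.64 in clutch E and clutch D did not differ beyond their error. MRF4a, a record of a myogenic factor, was at 13.5, 8.74, 13.2 and 11.9 FPKM with TTNPB in clutch E, against 20.3, 11.4, 14 and 13.8 FPKM with vehicle. The clutch D values were 23.9, 30.2, 25.7 and 23.1 FPKM with TTNPB, against 51.0, 49.5, 53.6 and 47.0 FPKM with vehicle. It fell in clutch D by -0.95 ± 0.16 (adjusted p = 0.00787), with -0.30 ± 0.16 in clutch E, so the larger size was in the clutch with the higher vehicle level. The responses differed by 0.65 ± 0.22 (limma adjusted p = 0.837), which passed on untransformed FPKM (adjusted p = 0.0194, over a range of 0.0194 to 1 among the alternatives).

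Tiarin, a secreted dorsalising factor known from the ectoderm, was far higher in clutch E under both exposures, at 57.2 ± 17.1 FPKM with TTNPB in clutch E and 1.39 ± 0.395 FPKM in clutch D, and at 77.9 ± 20.3 and 3.48 ± 0.855 FPKM with vehicle in clutch E and clutch D (SD, n = 4 each). Its responses of -0.44 and -0.90 did not pass in either clutch alone. CCAAT-enhancer binding protein delta, a transcription factor gene, was higher with vehicle in clutch E by 0.82 ± 0.25 (adjusted p = 0.0284) and rose by 1.38 in clutch E and 1.27 in clutch D, and a record named only ATPase rose by 1.51 and 1.47. *aadacl4*, of an esterase-like family, was also higher in clutch E with vehicle, by 0.71 ± 0.19 (adjusted p = 0.0148), and had responses of 0.73 and 0.50.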

How the data were processed

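Total RNA of 5-embryo pools was amplified (NuGEN Ovation V2) and read as SOLiD fragment libraries, per the labels' protocols. Dishes held 25 embryos. The authors deposited FPKM for 31306 GenBank records, 1 column per library. TopHat, Bowtie and Cufflinks are named, without versions, in the submitters' processing notes, and the sources used here do not name the alignment target. More replicates per clutch are mentioned in the labels than the 4 per group used here. No 2 of 120 library pairs were identical (correlations of 0.887 to 0.953), and FPKM keeps no depth, so no counting interval was computed.

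Records were named from their descriptions by fixed rules (198), or by gene number through the RefSeq gene table of Xenopus_laevis_v10.1 (2218 of 2547 numbers matched), or else by the description. The 19567 records averaging 1 FPKM or more over 16 libraries were fitted on the log2(FPKM + 1) scale with limma 3.58.1 (R 4.3.3, trended empirical Bayes) as 4 group means. Contrasts were the response in each clutch, their mean and difference, and clutch E minus clutch D under each exposure, adjusted by Benjamini-Hochberg over all records (threshold 0.05). The AGN193109 libraries were left out of the fit, since replicate 4E stood apart. Responders passed for the mean response. The fit was tested on simulated data. Alternatives are named in the closing section.

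Members, the 18 gene lists and tests were chosen with earlier results of these data known. Named records were the 10 responders with a gene name that had the most positive difference in response and the 10 that had the most negative one, the 5 with the highest and the 5 with the lowest vehicle clutch difference, a fixed set of retinoid, hox and patterning genes, and the record with the smallest p in each list. Some named records are not reported here. Other list members were named after their values were seen. Of the fixed set, *cyp26c1*, *dhrs3*, *rarg*, *hoxb3*, *hoxb4*, *hoxd4* and *otx2* had no matched record and were not analysed here, and *rarb* (0.747 FPKM on average) and *hoxd3* (0.171 FPKM) were not tested.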

Additional observations from a re-analysis of the deposited data

Results flagged for a closer look

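In 7 of 232 groups of 4 libraries checked, 1 library stood apart from the other 3, where chance flags about 1 group in 20, or 12. In TTNPB replicate 2D the median over the risers was 0.53, against 0.72 to 0.74 in the other TTNPB libraries of clutch D, the less abundant *cyp26a1* record was at 112 FPKM against 124 to 126, and 1 *gbx2* record was at 10.6 FPKM against 17.1 to 18.2. *msx1* was at 67.3 FPKM in vehicle replicate 3D, against 38.1 to 41.9 FPKM in the other vehicle libraries of clutch D. *gsc* was at 10.2 FPKM in vehicle replicate 1D, against 6.18 to 6.73 FPKM. The less abundant *tbxt* record was at 16.4 FPKM in TTNPB replicate 1E, against 13.5 to 13.9 FPKM, and at 12.3 FPKM in vehicle replicate 2E, against 14 to 14.2 FPKM.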

How the results depend on the processing

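The difference in response had 0 calls as fitted and in the alternatives except untransformed FPKM (10), no low-value filter (2, both with means near 0.1 FPKM and not tested otherwise) and leaving out 1 library (0 to 1, the call without TTNPB replicate 4D). Leaving out 1 library gave 218 to 345 responders, 117 to 184 records in clutch E and 65 to 103 in clutch D, 1907 to 3087 clutch differences with TTNPB and 3050 to 4437 with vehicle, a median difference over the responders of 0.08 (without TTNPB replicate 2D) to 0.20, and a slope of 0.57 to 0.76. With all 24 libraries the responders numbered 181, clutch E 115, and the clutch differences 1041 with TTNPB and 1963 with vehicle. An adjusted p below 0.1 gave 4295 clutch differences with TTNPB. The slope over all 294 responders, 0.71, was 0.51 with a pseudocount of 0.1, 0.66 without the filter, 0.77 after quantile normalization, 0.56 without TTNPB 4D and vehicle 3D and 0.62 without Tiarin, the last 2 chosen after seeing the data. Replicate numbers did not pair the samples (correlations of same-numbered deviations from -0.07 to 0.03, and 2 of 8 TTNPB libraries correlated best with their own number). With the replicate block clutch E had 119 calls, clutch D 58, the responders 205 and the difference 0.

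Of 1639 values for the 57 named records under 29 alternatives, 1596 kept their sign and side of the threshold, 2 passed it and 41, of 12 records, turned sign, none of them past the threshold. With a pseudocount of 0.1 these were the more abundant *hoxa2* record (0.12), *tmem60* (-0.08), CCAAT-enhancer binding protein delta (-0.24, and -0.02 with 0.5), *aadacl4* (-0.38) and ATPase (-0.03). On untransformed FPKM they were Tiarin (-18.6 FPKM), *hoxb6* (-0.00677), the less abundant *gbx2* record (-1.34) and *dusp6* record (-0.24). After quantile normalization they were ATPase (-0.06) and the more abundant *tbxt* record (-0.09), and after upper-quartile scaling the same records (-0.02 and -0.05). *hoxb6* was -0.03 with array weights and -0.11 without TTNPB 4D and vehicle 3D. Leaving out 1 library ranged ATPase from -0.15 to 0.20, CCAAT-enhancer binding protein delta from -0.12 to 0.28, *hoxa3* from -0.02 to 0.19, *hoxb6* from -0.13 to 0.27, *gbx2* from -0.02 to 0.29 and -0.16 to 0.29, the less abundant *dusp6* record from -0.02 to 0.36 and the more abundant *tbxt* record from -0.00461 to 0.08. The cause of these changes was not tested.

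The precision is limited by 4 libraries a group, by the unknown depth and by 1 sibship per clutch.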

Other observations

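A set of records outside the naming rule, chosen after their values were seen, had high levels with TTNPB in clutch E alone. Fos-related antigen-2, which encodes a subunit of the AP-1 transcription factor, was at 3.38, 2.75, 3.16 and 4.06 FPKM with TTNPB in clutch E, against 0.75, 0.758, 0.866 and 0.6 FPKM with vehicle. In clutch D it was at 0.925, 0.256, 0.632 and 0.655 FPKM with TTNPB, against 0.779, 1.67, 0.607 and 0.594 FPKM with vehicle. The 4 TTNPB libraries of clutch E stood above the other 12. It rose by 1.31 in clutch E (limma, adjusted p = 0.00149), with -0.22 in clutch D, and the difference was 1.53 ± 0.27 (unadjusted p = 4.23e-05, adjusted p = 0.218). Its mean was above 1 FPKM only with TTNPB in clutch E, so it passed the 1 FPKM filter through that group alone. These p-values therefore describe the record and are not read as support.

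A putative XIRG protein record was at 256, 312, 228 and 299 FPKM with TTNPB in clutch E, against 80.3, 20.2, 72.2 and 37.8 FPKM with vehicle. Clutch D libraries had 9.08, 15.6, 3.67 and 81.5 FPKM with TTNPB, against 4.86, 50.4, 25.7 and 40.0 FPKM with vehicle. Its levels spread widely within every group but the first, and the response of 2.53 in clutch E did not pass (adjusted p = 0.222). The difference was 3.12 ± 1.07 on the log2 scale (adjusted p = 0.837), and 224 FPKM without the transformation (adjusted p = 0.0163). Complement component 3 and Fos-related antigen-2 were the other records with a gene or protein name among the 9 that passed with a more positive response in clutch E on untransformed FPKM, along with MRF4a, whose smaller fall in that clutch gives the positive sign.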
